A study of Mus musculus with 3 samples.

Results

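ABC efflux transporters are membrane pumps that use ATP to export their substrates from cells. The 9 genes described here encode some of the pumps of the hepatocyte. Of these, 7 face the bile canaliculus (Abcb4, Abcb11, Abcc2, Abcg2, Abcg5, Abcg8 and Abcb1a) and 2 face the blood (Abcc3 and Abcc4). All 9 genes were taken by gene symbol from the main probe sets of the array, and make up 9 of the 30921 gene symbols there. Each symbol had 1 main probe set, marked in the files as matching its own transcript alone. The set was selected on measured values, since the log2 levels of these arrays and the differences between them were known when the genes were chosen. What follows therefore describes 3 arrays and supports no claim about the set.

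Liver RNA of ICR mice, an outbred laboratory stock, was hybridised to MoGene-2_0-st arrays, 1 array per group and 3 in all. The EEC+TMA group was given EEC, an ethanol extract of Ecklonia cava (an edible brown seaweed), by mouth for 2 weeks, with trimethylamine (TMA), a volatile amine with a fishy odour, for 24 hours. The TMA group received distilled water for 2 weeks with TMA. The no treatment group received neither, and the labels name no water for it, so TMA against no treatment holds both differences. The mice began at an age of 8 weeks and were sampled at 10 weeks. The sources used here do not give sex, doses, the route of TMA, or whether an array holds RNA of 1 animal or of several. With 1 array per group there is no replicate error and no test, and precision is limited by the number of arrays.

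Bile forms when hepatocytes pump solutes across the canalicular membrane and water follows. Abcb11 (the bile salt export pump) exports bile salts, Abcb4 moves phosphatidylcholine into the outer leaflet so that bile salts can carry it off, Abcc2 exports conjugated bilirubin and glutathione conjugates, and the Abcg5 and Abcg8 proteins pair to secrete cholesterol and plant sterols. Abcg2 and Abcb1a (a P-glycoprotein) export drugs and other foreign compounds. Abcc3 and Abcc4 carry conjugates and bile acids back to the blood and are known as an escape route when bile flow is impaired. Several of these genes are targets of nuclear receptors, among them FXR, which senses bile acids and binds an inverted repeat of the hexamer AGGTCA with 1 base between the copies (IR-1), and LXR, which senses oxysterols.

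RefSeq promoter windows of build GRCm38.p6, from 250 bases before to 50 bases after the start site, were found for 8 of the 9 genes, in 12 windows. The windows of Abcb11, Abcc2 and Abcb4, the 3 genes with the largest differences between the TMA and no treatment arrays, and of Abcg5, which overlaps that of Abcg8, are shown 5′ to 3′ on the strand of the gene. Capitals mark exact AGGTCA, exact TGACNNNGC (the core that NRF2 binds), exact TATAAA, and IR-1 with at most 1 mismatch, each searched on both strands.
Abcb11 (chr2:69342567-69342866, reverse strand): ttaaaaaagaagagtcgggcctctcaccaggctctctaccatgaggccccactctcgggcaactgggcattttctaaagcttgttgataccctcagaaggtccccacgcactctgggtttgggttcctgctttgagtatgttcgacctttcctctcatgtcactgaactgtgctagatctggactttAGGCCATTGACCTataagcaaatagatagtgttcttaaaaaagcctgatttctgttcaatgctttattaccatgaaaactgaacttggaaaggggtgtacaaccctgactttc
Abcc2 (chr19:43782058-43782357, forward strand): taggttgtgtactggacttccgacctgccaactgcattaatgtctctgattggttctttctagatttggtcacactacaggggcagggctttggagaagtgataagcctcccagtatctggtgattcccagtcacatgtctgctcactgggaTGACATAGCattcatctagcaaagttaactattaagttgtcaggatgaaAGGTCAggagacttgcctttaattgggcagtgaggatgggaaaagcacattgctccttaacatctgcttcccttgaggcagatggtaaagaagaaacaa
Abcb4 (chr5:8893471-8893770, forward strand): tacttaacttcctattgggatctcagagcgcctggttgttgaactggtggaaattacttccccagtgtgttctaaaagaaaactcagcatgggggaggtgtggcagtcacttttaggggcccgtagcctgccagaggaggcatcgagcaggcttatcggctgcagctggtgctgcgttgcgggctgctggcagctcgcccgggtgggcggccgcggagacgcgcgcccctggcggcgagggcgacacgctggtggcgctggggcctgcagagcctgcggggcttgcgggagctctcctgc
Abcg5 (chr17:84682962-84683261, reverse strand): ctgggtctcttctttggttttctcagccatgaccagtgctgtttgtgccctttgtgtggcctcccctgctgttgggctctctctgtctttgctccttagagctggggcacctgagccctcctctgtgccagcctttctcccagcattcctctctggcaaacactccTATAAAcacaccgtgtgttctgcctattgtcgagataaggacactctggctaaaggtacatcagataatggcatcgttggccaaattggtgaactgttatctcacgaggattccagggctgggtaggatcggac

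The Abcb11 window holds an IR-1 match with 1 mismatch that begins at position -63 from the start site, and its capitals include the only AGGTCA of the window, on the opposite strand. Such a match occurs in 0.0822% of 32851 windows of the same length. In the Abcc2 window a TGACNNNGC match begins at -98 and an AGGTCA match at -49. Windows with these letters make up 12.4% and 16.3% of the 32851, in that order. Among the windows not shown, TGACNNNGC also matched in those of Abcb1a and of Abcc4, whose value was identical on every array. AGGTCA and TATAAA also matched in windows of Abcg2. None of the marked motifs was found in the Abcb4 window, which is rich in G and C (64% against 45.3% for Abcb11 and 45% for Abcc2). The Abcg5 window shares 209 bases with a window of Abcg8, since the start sites of these windows lie head to head on chromosome 17. Each of these windows holds 1 TATAAA match, which is the same site in the shared bases read on opposite strands. A TATAAA match occurs in 13.6% of windows. These matches are letters in a window, and binding was not measured.

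The arrays differed as wholes. A gene counted as measured where its log2 value reached the 95th percentile of 1523 chemosensory receptor probe sets, which was 3.15 (EEC+TMA array), 3.25 (TMA array) and 3.14 (no treatment array). Poly-A spike-in probe sets had medians of 4.98, 5.76 and 4.95 on the arrays in that order. A second spike-in set (bac) had 7.03, 7.49 and 7.01, and exon normalization probe sets 6.49, 6.07 and 6.43. In these sets the TMA array stood apart from both others. Intron normalization probe sets, with medians below background, had 2.16, 2.25 and 2.51, where the no treatment array stood apart. Many deposited values were identical between arrays: of 15654 genes measured on all 3, 36.6% had a single value throughout. All 11 hepatocyte markers on the arrays were measured, while 6 of 12 bile duct markers (among them Krt19, Epcam and Cftr) and 6 of 8 gallbladder and intestine markers lay below background on every array.

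Abcb4 had a log2 level of 9.19 on the EEC+TMA array, 8.00 on the TMA array and 9.09 with no treatment. The TMA array held the low value, and the other 2 lay within 0.10 of each other. The gene lies on chromosome 5 (8893717 to 8959226, forward strand, in the coordinates of the files, for which the sources used here name no build). It was 2.29-fold higher on the EEC+TMA array than on the TMA array, and 2.14-fold lower on the TMA array than on the no treatment array.

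Abcc2 (chromosome 19, 43782192 to 43838218, forward strand) read 9.53 on the EEC+TMA array, 8.72 on the TMA array and 9.82 with no treatment. The TMA array was again the lowest, with EEC+TMA between it and no treatment. Its level was 1.75-fold higher with EEC+TMA than with TMA, 2.14-fold lower with TMA than with no treatment, and 1.22-fold lower with EEC+TMA than with no treatment.

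Abcb11 (chromosome 2, 69238282 to 69342616, reverse strand) gave log2 levels of 10.04 on the EEC+TMA array, 9.51 on the TMA array and 10.37 with no treatment. Its order over the arrays was that of Abcc2. It was 1.45-fold higher for EEC+TMA against TMA and 1.82-fold lower for TMA against no treatment, both smaller than for Abcc2, and 1.26-fold lower for EEC+TMA against no treatment.

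The spans of the sterol pump genes overlap on chromosome 17. Abcg5 lies at 84658234 to 84683011 on the reverse strand, and Abcg8 at 84676302 to 84700333 on the forward strand. Their levels did not read alike. Abcg8 had 7.77 on the EEC+TMA array, 7.37 on the TMA array and exactly the no treatment value of 7.77. Abcg5 had the identical value of 6.63 on all 3 arrays. Since 36.6% of measured genes also had 1 value throughout, and 17.2% had identical EEC+TMA and no treatment values beside a different TMA value, an identical value here is a common feature of the table and gives no measure of how alike the livers were. After quantile normalization and loess, Abcg5 stood at 0.22 and 0.10 (log2) for TMA against no treatment, with the sign opposite to that of Abcg8 at -0.17 and -0.24.

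Of the pumps for foreign compounds, Abcg2 (chromosome 6, 58584523 to 58692511, forward strand) read 7.38 on the EEC+TMA array, 6.98 on the TMA array and 7.40 with no treatment. EEC+TMA and no treatment differed by 1.01-fold, and TMA lay 1.34-fold below no treatment. Abcb1a (chromosome 5, 8660077 to 8748575, forward strand), with 12 probes against 22 to 32 for the other genes, lay near background at 3.89 on the EEC+TMA array, 2.72 on the TMA array and 3.46 with no treatment. The TMA value was below background, so Abcb1a was at least 1.55-fold higher on the EEC+TMA array than on the TMA array and, for TMA against no treatment, lower by at least 1.15-fold. With the background level at the 99th percentile of the receptor probe sets, neither bound could be given.

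On the basolateral side, Abcc3 (chromosome 11, 94343295 to 94392997, reverse strand) read 9.24 on the EEC+TMA array, 8.63 on the TMA array and 9.04 with no treatment. EEC+TMA was the highest of the 3, 1.52-fold above TMA and 1.15-fold above no treatment, and TMA lay 1.32-fold below no treatment. Abcc4 (chromosome 14, 118482692 to 118706219, reverse strand) had the identical value of 4.31 on every array.

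**Figure D1:**
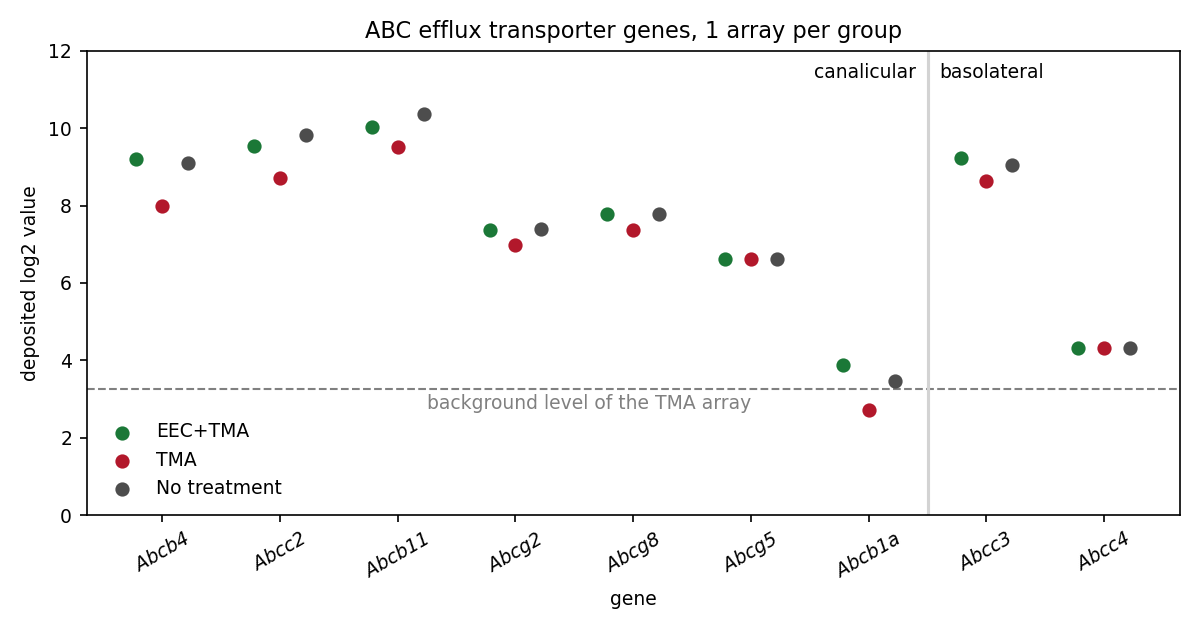
Deposited log2 value of each gene (vertical axis) on the EEC+TMA, TMA and no treatment arrays, 1 point per array. The TMA point is the lowest for Abcb4, Abcc2, Abcb11, Abcg2, Abcg8, Abcb1a and Abcc3, while Abcg5 and Abcc4 have 1 value on all 3 arrays. The dashed line at 3.25 is the background level of the TMA array.

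The comparison of TMA with no treatment sets livers of mice given distilled water and trimethylamine against livers of mice given neither. Abcb4 and Abcc2 were at least 2-fold lower, 2 of the 9 genes, and none was 2-fold higher. Of all 30921 genes 0.653% were at least 2-fold lower and 0.34% at least 2-fold higher. Shares of all genes, here and for the other pairs, include genes below background: 16039 were measured on the TMA array and 16319 with no treatment. All 9 efflux genes were measured with no treatment, so these shares are not of genes of like level. Of the 8 genes measured on both arrays 6 were lower, none was higher and 2 were identical, against 37.6% lower, 19.1% higher and 43.3% identical among the 15715 genes measured on both. The median log2 difference of the 8 was -0.41, and that of the 15715 was 0. The 6 measured canalicular genes had a median of -0.64 with 5 lower. The basolateral genes read -0.40 for Abcc3 and 0 for Abcc4.

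Differences on this pair of arrays varied with level. Among the 591 genes whose mean level lay within 0.5 (log2) of that of Abcb4, the median difference was -0.24 and 90% lay between -0.85 and 0.51, and Abcb4 stood at -1.10 with 1.18% of them lower still. For Abcc2, also at -1.10, 2.20% of the 318 genes near its level were lower, and for Abcb11, at -0.86, 3.26% of 184. Abcc3, Abcg2 and Abcg8 lay inside that range, with 31.0%, 26.9% and 31.4% of the genes near their levels lower than they were. Abcg5, at 0, had 67% of the 1879 genes near its level lower and 10.3% higher. Abcc4, also at 0, had 19.9% of 4237 lower and 25% higher. Among the efflux genes measured on both arrays, Abcb4, Abcc2 and Abcb11 thus lay below the central 90% of genes near their levels. The others lay within it. Abcb1a was not ranked, since its TMA value lay below background.

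**Figure D2:**
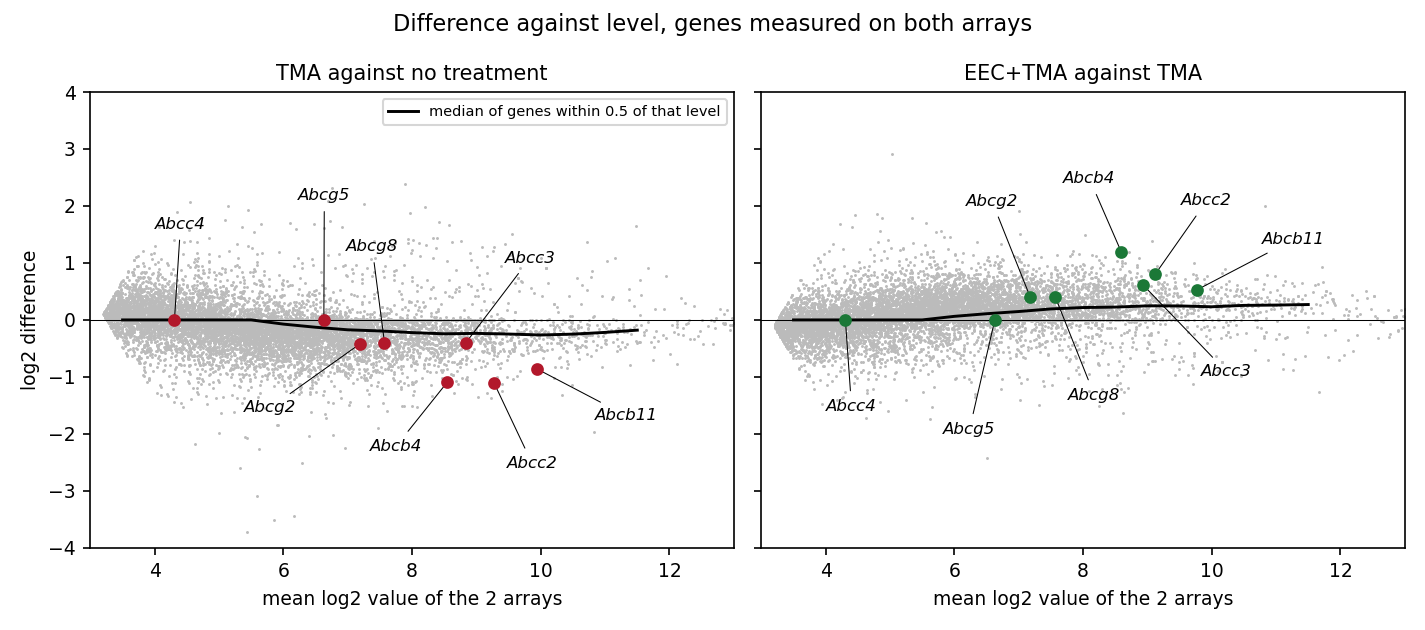
Log2 difference (vertical axis) against the mean log2 value of both arrays (horizontal axis) for all genes measured on both (grey), with the ABC efflux genes in colour, for TMA against no treatment (left) and EEC+TMA against TMA (right). The black line is the median of genes within 0.5 of each level, which runs below 0 on the left and above 0 on the right at high levels. Abcb4 and Abcc2, both at -1.10, lie farthest below it among the coloured genes on the left, and Abcb4, at 1.19, lies farthest above it on the right.

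Other values moved with this comparison. For TMA against no treatment the median log2 difference was 0.99 over poly-A spike-ins and -0.37 over exon normalization probe sets. Of 11 hepatocyte markers 8 were lower, 1 higher and 2 identical, with mean log2 levels of 10.21 on the TMA array and 10.44 with no treatment. After quantile normalization 9 of these markers were lower and 2 higher, and under loess 4 were lower and 6 higher. Of 10 sinusoidal endothelial markers 8 were lower and 2 identical (7 lower and 3 higher after quantile normalization), with mean levels of 6.31 and 6.67 on these arrays. Of 10 stellate cell markers 6 were lower and 4 identical (6 lower and 4 higher after quantile normalization), at 5.55 and 5.77. Of 12 Kupffer cell and macrophage markers 8 were higher, 2 lower and 2 identical, at 5.71 and 5.57. Of the 6 measured bile duct markers 3 were lower, 2 higher and 1 identical. Among these, Onecut1, a transcription factor gene that hepatocytes also express, read 7.01 on the EEC+TMA array, 7.08 on the TMA array and 8.59 with no treatment, 2.85-fold lower for TMA against no treatment. Onecut1 stood at -1.26 (log2) under quantile normalization and -1.34 under loess in this pair. Spp1, which encodes osteopontin, read 4.53, 4.40 and 5.17 on the same arrays. In whole liver RNA, fewer cells of a type and less RNA per cell cannot be told apart. The part of these shifts in the transporter differences was not tested. Under quantile normalization Abcb4 and Abcc2 were both at -0.88 (log2), and under loess at -0.90 and -0.87, so both kept their direction and fell short of 2-fold.

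The comparison of EEC+TMA with TMA sets livers of mice given extract and trimethylamine against those of mice given distilled water and trimethylamine. It shares the TMA array with the comparison above, so opposite signs on the 2 are not separate results. With 1 array per group, the extract, the animals and the array cannot be told apart. Abcb4 was at least 2-fold higher, 1 of the 9 genes, against 0.32% of all genes. Of the 8 genes measured on both arrays 6 were higher, none lower and 2 identical, with a median of 0.47, while among 15756 genes 36.4% were higher, 19.3% lower and 44.3% identical, with a median of 0. Abcb4, at 1.19, had 0.17% of the 589 genes near its level above it. Abcc2, at 0.81, had 5.26% of 361 above it, Abcb11, at 0.53, 15.4% of 214, and Abcc3, at 0.61, 16.1% of 441. Abcb4 alone lay outside the central 90% of genes near its level, which ran from -0.52 to 0.84, and Abcc2 lay at its upper edge of 0.81.

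Poly-A spike-ins differed by -0.99 and exon normalization probe sets by 0.39 (log2) on this pair. All 11 hepatocyte markers were higher on the EEC+TMA array, with a median of 0.19. After quantile normalization all 11 were still higher (median 0.15), while under loess 6 were higher and 5 lower (median 0.04). Of 10 sinusoidal endothelial markers 8 were higher, with a median of 0.48 (0.31 after quantile normalization). Of 12 Kupffer cell and macrophage markers 9 were higher, with a median of 0.17. The part of these shifts in the transporter differences was not tested. Under quantile normalization Abcb4 stood at 0.99, just short of 2-fold, and Abcc2 at 0.63, Abcb11 at 0.34 and Abcc3 at 0.38.

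EEC+TMA against no treatment leaves the TMA array out. None of the 9 genes was 2-fold apart, against 0.657% of all genes (0.0873% higher and 0.569% lower). All 9 were measured, with 3 higher (Abcb1a, Abcc3 and Abcb4), 3 lower (Abcb11, Abcc2 and Abcg2) and 3 identical (Abcc4, Abcg5 and Abcg8), and a median of 0. After quantile normalization 6 were higher, 2 lower and 1 identical. The log2 differences ran from -0.33 for Abcb11 to 0.42 for Abcb1a, which became 0 with the background level at the 99th percentile. Near the level of Abcb1a 1.21% of 5212 genes stood higher. For Abcb11 and Abcc2, at -0.33 and -0.29, 12.3% of the genes near the level of each were lower. Abcg2 differed by -0.02, which became 0.03 under quantile normalization. Poly-A spike-ins differed by -0.07, exon normalization probe sets by 0.02 and intron normalization probe sets by -0.17 here. All 12 Kupffer cell and macrophage markers were higher on the EEC+TMA array (median 0.26, and 0.27 after quantile normalization). Of 11 hepatocyte markers 9 were higher and 2 lower (6 higher, 2 lower and 3 identical after quantile normalization). Of the 6 measured bile duct markers 1 was higher, 4 lower and 1 identical. The part of these shifts in the transporter differences was not tested.

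**Figure D3:**
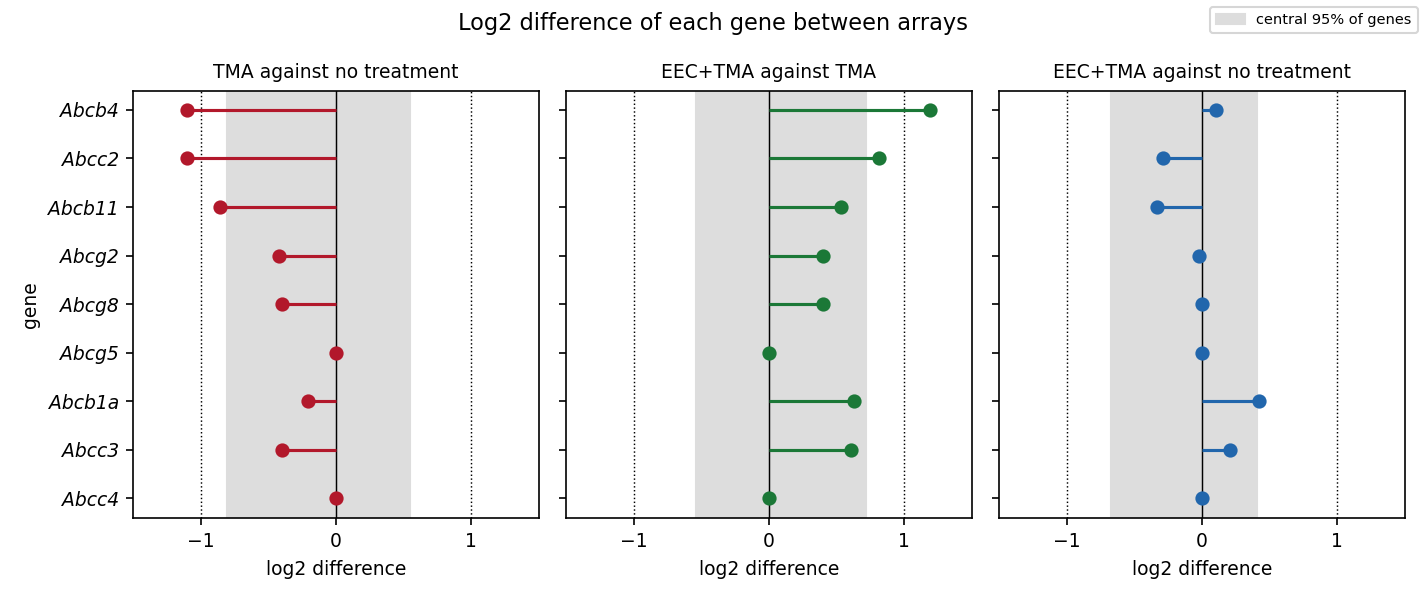
Log2 difference of each gene (horizontal axis) in the 3 pairs of arrays, with Abcb1a computed after raising each value to the background level. Grey bands hold the central 95% of genes measured on both arrays and dotted lines mark 2-fold. Abcb4, Abcc2 and Abcb11 lie outside the band for TMA against no treatment, Abcb4 and Abcc2 for EEC+TMA against TMA, and Abcb1a lies at the upper edge for EEC+TMA against no treatment.

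**Figure D4:**
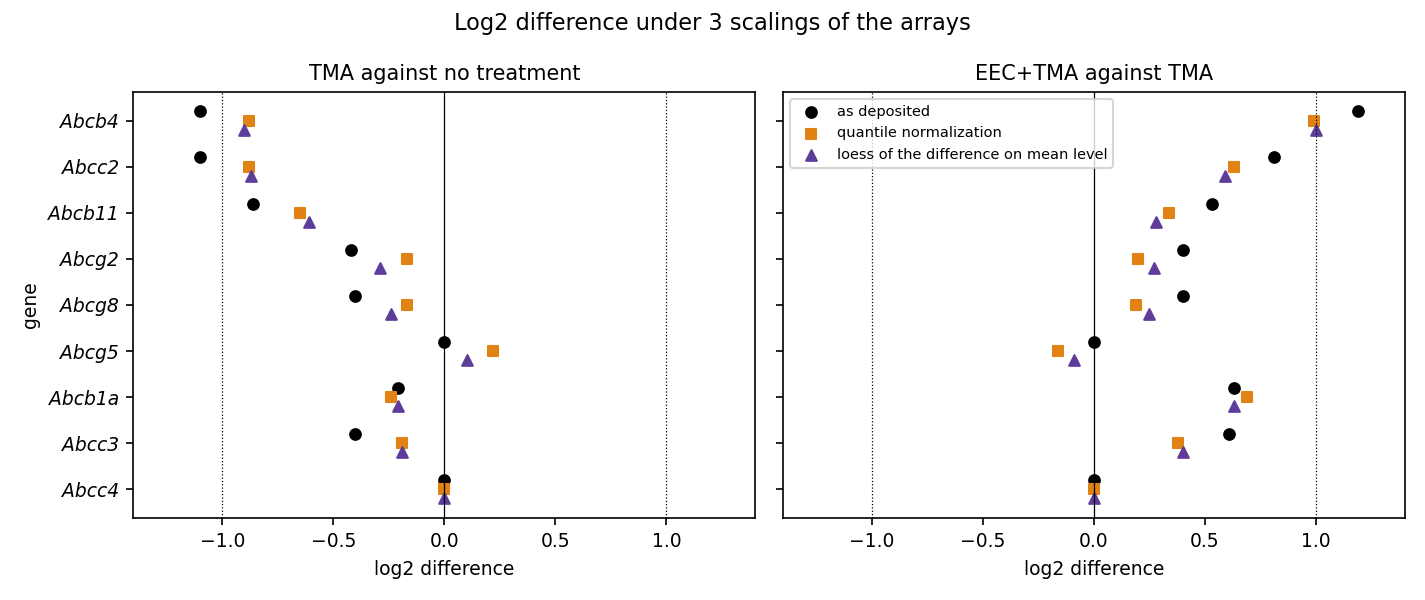
Log2 differences (horizontal axis) as deposited, after quantile normalization over the 3 arrays and after a loess correction for level. For TMA against no treatment Abcb4 is at -1.10, -0.88 and -0.90 in these settings. The points of Abcg5 lie at 0 as deposited. Under quantile normalization and loess they lie above 0 for TMA against no treatment and below 0 for EEC+TMA against TMA. Those of Abcc4 stay at 0.

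The pattern of Abcb4 over the 3 arrays was compared with that of 12530 genes by the root mean square distance of mean-centred log2 values. The nearest were Rps3a3 (whose probe set is marked as matching further transcripts), Kdm5b, a histone demethylase gene, Fat1, a cadherin gene, Htt, the huntingtin gene, and Dot1l, a histone methyltransferase gene, at distances of 0.039 to 0.061, and 22 genes lay within 0.1. Nearest to Abcc2 were Ric1, Arhgef12, Adgrf5, Alas1, which encodes the first enzyme of haem synthesis, and the coactivator gene Crebbp, at 0.010 to 0.032, with 46 genes within 0.1. With 3 arrays such likeness is a description of these arrays.

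The remaining ABC genes place the 9 in their superfamily. In this and the following lists, values within 0.005 (log2) of each other count as identical. Of 41 other ABC symbols 30 were measured on at least 1 array. For TMA against no treatment 28 were measured on both arrays, with 16 lower, 1 higher and 11 identical, a median of -0.08 and none 2-fold apart. After quantile normalization 13 were higher and 15 lower. For EEC+TMA against TMA 16 of 28 were higher, 3 lower and 9 identical, with a median of 0.20 (0.04 after quantile normalization).

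Abcd2, which imports fatty acids into peroxisomes, stood opposite to the efflux pumps at 3.77 on the EEC+TMA array, 5.50 on the TMA array and 4.59 with no treatment. It was the 1 ABC gene in the authors' deposited table for EEC+TMA against TMA, with a signed fold of -3.31, and the authors' deposited table of KEGG maps for that pair counts 1 gene under ABC transporters. None of the 9 efflux genes is in either list of the authors' deposited tables, whose smallest fold is 2.51. Abca6 read 8.31, 8.16 and 9.12 on the EEC+TMA, TMA and no treatment arrays. Abca1, which exports cholesterol to apolipoprotein A-I, read 8.83, 8.28 and 9.02 on the same arrays, low with TMA as the sterol pump gene Abcg8 was. Abce1, a ribosome recycling factor that is no transporter, read 8.20, 8.37 and 8.85, so that EEC+TMA was the lowest.

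**Figure D5:**
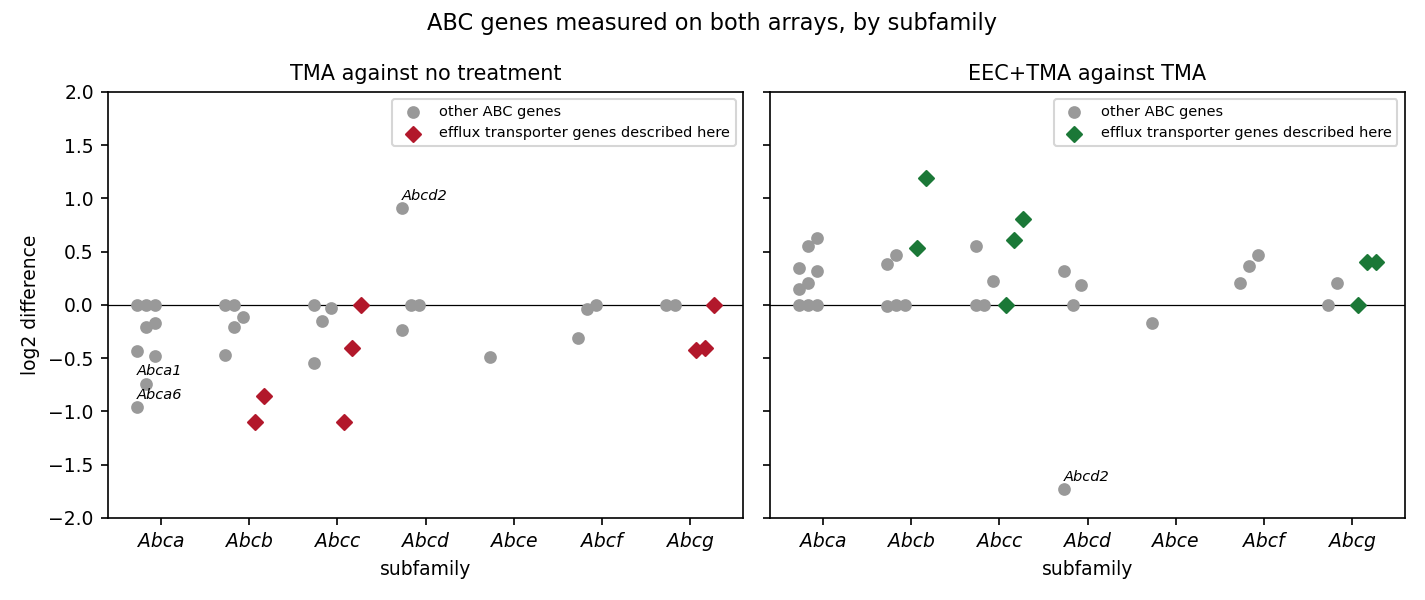
Log2 difference (vertical axis) of ABC genes measured on both arrays, by subfamily, with the efflux genes described here as coloured diamonds and other ABC genes as grey circles, for TMA against no treatment (left) and EEC+TMA against TMA (right). Abcd2 stands alone at 0.91 on the left and -1.73 on the right, and Abcb4 reaches -1.10 and 1.19.

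Among 18 nuclear receptors and factors that control ABC genes 17 were measured on both arrays in each pair, and none was 2-fold apart. For TMA against no treatment 11 were lower, 1 higher and 5 identical (median -0.15, 0.06 after quantile normalization, where 10 were higher). Nr1h4, which encodes FXR, read 7.73 on the EEC+TMA array, 7.23 on the TMA array and 7.93 with no treatment. As deposited, it was the gene of this list with the largest difference, -0.70 for TMA against no treatment and 0.50 for EEC+TMA against TMA. Under quantile normalization these were -0.47 and 0.29, and under loess -0.55 and 0.35. The coactivator gene Ppargc1a read 4.98 on both the EEC+TMA and no treatment arrays and 4.50 on the TMA array. Nr1h2 (LXR beta) read 6.93, 6.89 and 6.52 and Nr5a2 7.76, 7.82 and 8.15 on the EEC+TMA, TMA and no treatment arrays, so neither had the TMA array apart from both others. For TMA against no treatment Nr1h2 stood at 0.60 under quantile normalization, a larger difference than that of Nr1h4.

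Bile acid synthesis enzymes were 13 of 15 lower and 2 identical for TMA against no treatment, with a median of -0.21, but 7 were higher and 8 lower after quantile normalization. Cyp46a1, a cholesterol 24-hydroxylase, was 2-fold lower or more, at 6.02 on the EEC+TMA array, 5.98 on the TMA array and 7.42 with no treatment. Its difference for TMA against no treatment was -1.24 (log2) under quantile normalization and -1.34 under loess, still past 2-fold. Cyp7a1, the rate-limiting enzyme, read 8.66, 8.54 and 9.40 on these arrays. Both stayed low with EEC+TMA, unlike Abcb4. Hsd17b4 read 10.23, 9.52 and 10.06, and Akr1d1 7.99, 8.30 and 8.63. For EEC+TMA against TMA 14 of the 15 were higher and 1 lower (7 and 6 after quantile normalization).

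Of 18 partners of the canalicular membrane 10 were lower, 2 higher and 6 identical for TMA against no treatment, and after quantile normalization 7 were lower and 11 higher. Atp8b1, the flippase that keeps the canalicular membrane resistant to bile salts, read 8.30 on the EEC+TMA array, 8.19 on the TMA array and 8.91 with no treatment. Anpep, a canalicular peptidase, read 8.59, 7.98 and 8.52 on these arrays, Ceacam1, an adhesion protein, 11.20, 10.92 and 11.46, and the scaffold gene Slc9a3r1 8.35, 8.14 and 7.83. None was 2-fold apart in any pair.

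Among uptake and basolateral carriers 6 of 10 measured were lower, 2 higher and 2 identical for TMA against no treatment (4 lower and 6 higher after quantile normalization). Slco1a1, an organic anion uptake carrier, read 9.77 on the EEC+TMA array, 10.05 on the TMA array and 10.76 with no treatment, 1.99-fold lower with EEC+TMA than with no treatment. Slco1b2 read 10.34, 10.42 and 10.87 on these arrays. Slc10a1, the sodium-dependent bile acid uptake carrier, read 10.56, 10.27 and 10.67, and Slc27a5, which activates bile acids and is also in the enzyme list, 9.70, 9.13 and 9.31.

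NRF2 target genes and sterol and LXR targets were set beside Abcc2 and the sterol pumps. Of 13 measured NRF2 targets 9 were higher, none lower and 4 identical for EEC+TMA against TMA, with a median of 0.29 (0.12 after quantile normalization). Gstm3, a glutathione transferase, was 2-fold higher or more at 7.80 on the EEC+TMA array, against 6.66 on the TMA array and 6.84 with no treatment, and its difference from TMA was 0.93 (log2) under quantile normalization, short of 2-fold, and 1.01 under loess. Hmox1, which encodes haem oxygenase 1, read 5.89, 5.60 and 5.10 on the EEC+TMA, TMA and no treatment arrays. Ephx1 read 8.98, 8.37 and 8.76, and Gsta4 8.04, 7.52 and 7.79. For TMA against no treatment 8 of the 13 were lower, 2 higher and 3 identical.

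Of 14 sterol and LXR targets 11 were higher and 3 identical for EEC+TMA against TMA, with a median of 0.23 (10 higher and 4 lower after quantile normalization). Npc1, the lysosomal cholesterol exporter, read 8.78 on the EEC+TMA array, 7.73 on the TMA array and 8.87 with no treatment. It passed 2-fold for both TMA against no treatment and EEC+TMA against TMA, and neither difference reached 2-fold under quantile normalization or loess. Lpcat3 read 9.94, 9.23 and 9.78 and Mylip 5.83, 5.40 and 6.07 on the EEC+TMA, TMA and no treatment arrays, with TMA the lowest for both.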

How the data were processed

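Per the labels' protocols, biotin-labelled fragments of sense cDNA from liver RNA were hybridised. The values the authors deposited are log2, with 1 for each probe set on each array, and a second deposited table holds the same log2 values within 5e-05. The sources used here do not say how they were summarised or normalized. The authors also deposited lists with a signed fold per probe set, and a count of listed genes per KEGG map.

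The members and all gene lists were chosen with earlier results of these data known. A log2 difference of at least 1, after raising each value to its array's background level, counted as 2-fold apart. No test was made. Named were the 9 genes, those of the other ABC genes and of each pathway list at least 2-fold apart in any pair and up to 4 with the largest difference, the 5 genes nearest to Abcb4 and to Abcc2, and markers that stand beside a result. Of 6 pathway and 10 cell type lists, B cell, T cell, neutrophil and erythroid lists are not described further: they had 3, 2, 1 and 4 members measured on all arrays. All 9 genes matched the reference gene table of GRCm38.p6 by identifier and symbol. Alternatives were median centring, quantile normalization, loess (span 0.3), other background levels and size rules, the mean of probe sets, unique probe sets and the second table. Python 3.11.15, pandas 2.3.3, numpy 2.4.6, statsmodels 0.14.6 and matplotlib 3.10.9 were used.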

Additional observations from a re-analysis of the deposited data

How the results depend on the processing

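The count of efflux genes at least 2-fold apart was 2 for TMA against no treatment and 1 for EEC+TMA against TMA. Under quantile normalization and under loess both counts were 0, as they were with a 3-fold rule. For EEC+TMA against TMA the count was 2 with no background level, where Abcb1a joined at 1.17 (log2), and 4 with a 1.5-fold rule, which by its construction passes more genes. The median log2 difference was -0.18 under quantile normalization and -0.27 under loess for TMA against no treatment, against -0.41 as deposited, and 0.27 and 0.28 for EEC+TMA against TMA, against 0.47. The cause was not tested. For EEC+TMA against no treatment the count stayed at 0 and the median between 0 and 0.03 in every alternative run. Abcb4 and Abcc2 kept their signs for TMA against no treatment and for EEC+TMA against TMA in every alternative run. In these 2 comparisons Abcb1a, near background, kept its sign except with the 99th percentile background level, where no bound could be given. Abcg5, identical as deposited, had no stable sign. Abcc4, also identical as deposited, moved from 0 by more than 0.005 only under median centring and with the 99th percentile background level. Its TMA value lay below that level. No paired analysis was possible because each group has 1 array, and none could be left out in turn.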

Other observations

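Abcb1b, the paralogue that lies between Abcb1a and Abcb4 on chromosome 5, was chosen after its values were seen. It read 3.20 on both the EEC+TMA and TMA arrays and 2.35 on the no treatment array. It reached the background level on the EEC+TMA array alone.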
